A study of Rattus norvegicus albus with 6 samples.

Results

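The genes described here carry out DNA replication and mitosis: 46 genes were listed by symbol, and 41 of them had a probe set with that symbol alone among the 14322 named genes on the arrays. Mcm3, Mcm4, Mki67, Cenpe and Cenpf were not analysed here. The measured genes were 11 replication genes (Mcm2, Mcm5, Mcm6, Mcm7, Pcna, Rrm1, Rrm2, Gins1, Gins2, Cdc6 and Cdt1), 22 mitotic genes, and 8 others that regulate entry into S phase or act beside it (E2f1, E2f7, E2f8, Ccne1, Ccne2, Ccna1, Tyms and Stmn1). They were measured in primary rat hepatic stellate cells, the vitamin A storing cells of the liver that become matrix-producing myofibroblasts, in a study of the genes that canonical Wnt signalling controls.

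Every culture had spent 7 days on plastic in low glucose DMEM with 10% serum and was fully activated. The Ad.DKK-1 group received an adenovirus that expresses DKK-1, a secreted antagonist of the Wnt co-receptors LRP5 and LRP6, and its control group Ad.GFP an adenovirus that expresses green fluorescent protein. Both viruses were used at a multiplicity of infection of 200 for 24 h in 5% serum, and 24 h without serum followed. The ICG-001 group received 10 µM of this inhibitor of the β-catenin and CBP interaction for 24 h without serum, and its control group the vehicle. The FJ9 group received 200 µM of this inhibitor of the Frizzled and Dishevelled interaction for 24 h without serum, and its control group a vehicle culture of its own. All 6 groups had thus been without serum for their last 24 h. The sources used here name neither the rat strain nor the promoter that drives DKK-1. Each group had a single array, made from the pooled RNA of 3 to 4 rats, and a difference for a single treatment therefore has no replicate check and no p-value.

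Levels are RMA values on the log2 scale, where a difference of 1 is a doubling, and all differences are treated minus own control. Of 12 listed stellate cell and fibroblast markers 11 were measured, with a median level between 10.65 and 12.29 on each array. Col1a1 read between 12.57 and 12.98 and Pdgfrb between 11.91 and 12.55, while the lowest readings were those of Rgs5 on ICG-001 (6.13, against 8.96 on its vehicle) and Lrat on FJ9 (7.18, against 10.52 on its vehicle). Alb, the main hepatocyte gene, read between 4.99 and 7.25. Of the endothelial genes Cdh5 read between 4.57 and 5.86 and Tek between 6.38 and 8.19. The highest macrophage genes were Cd68, between 7.26 and 8.44, and Cd14, between 9.69 and 11.63. Most macrophage genes were dim: the median of all 10 lay between 5.54 and 6.56 on each array, against 7.57 to 7.68 for all named genes. The arrays differed in scale: the median of all probe sets was 7.11 on the ICG-001 array against 7.28 on its vehicle, 7.01 on Ad.DKK-1 against 7.11 on Ad.GFP, and 7.15 on both arrays of the FJ9 pair. Much of this lay among dim genes, since the 4297 genes under the level filter (the lowest 30% by mean level) had a median difference of −0.26 with ICG-001, −0.17 under Ad.DKK-1 and 0.04 with FJ9. Of the measured members, 24 passed that filter, namely 8 replication genes, 9 mitotic genes and 7 of the others. The counts that follow cover all 41 unless they say otherwise.

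Cells commit to division when cyclin E and its kinase release E2F factors from the retinoblastoma proteins, and E2F then switches on the enzymes and loading factors of S phase. Origins are licensed when Cdc6 and Cdt1 load the ring of Mcm2 to Mcm7 onto DNA, GINS completes the active helicase, Pcna clamps the polymerases, and ribonucleotide reductase (Rrm1 and Rrm2) supplies deoxynucleotides. Mitotic genes come later in the cycle, under the MuvB complex with B-Myb and FoxM1, and cover the cyclin B kinase, the Aurora and Polo kinases, the spindle checkpoint and the motors of spindle and cytokinesis. In quiescent cells the DREAM complex holds both gene groups down. Stellate cells hardly divide in healthy liver and start to proliferate when they activate.

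The mitotic genes were lower on the Ad.DKK-1 and ICG-001 arrays than on their controls, less so on the FJ9 array, and the replication genes were mixed, with medians closer to 0. At least 1.5-fold lower were 15 of 22 mitotic genes under Ad.DKK-1, 17 with ICG-001 and 5 with FJ9, against 22.6%, 16.3% and 12.3% of all named genes in these comparisons. At least 1.5-fold higher were 1, 0 and 1 of them, against 14.5%, 10.3% and 10.6% of all named genes. These counts leave out Stmn1, a microtubule gene grouped with the others, which read 1.15, 1.51 and 6.60 times its control. Of the 11 replication genes, 5, 3 and 2 were at least 1.5-fold lower in the same order, and 1, 1 and 2 higher. The median difference of the mitotic genes was −0.75 under Ad.DKK-1, −1.10 with ICG-001 and −0.31 with FJ9, and that of the replication genes −0.18, −0.35 and 0.04. The median over all named genes was −0.09, −0.08 and 0.02. In bulk RNA, fewer dividing cells and less RNA per dividing cell cannot be told apart.

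**Figure D1:**
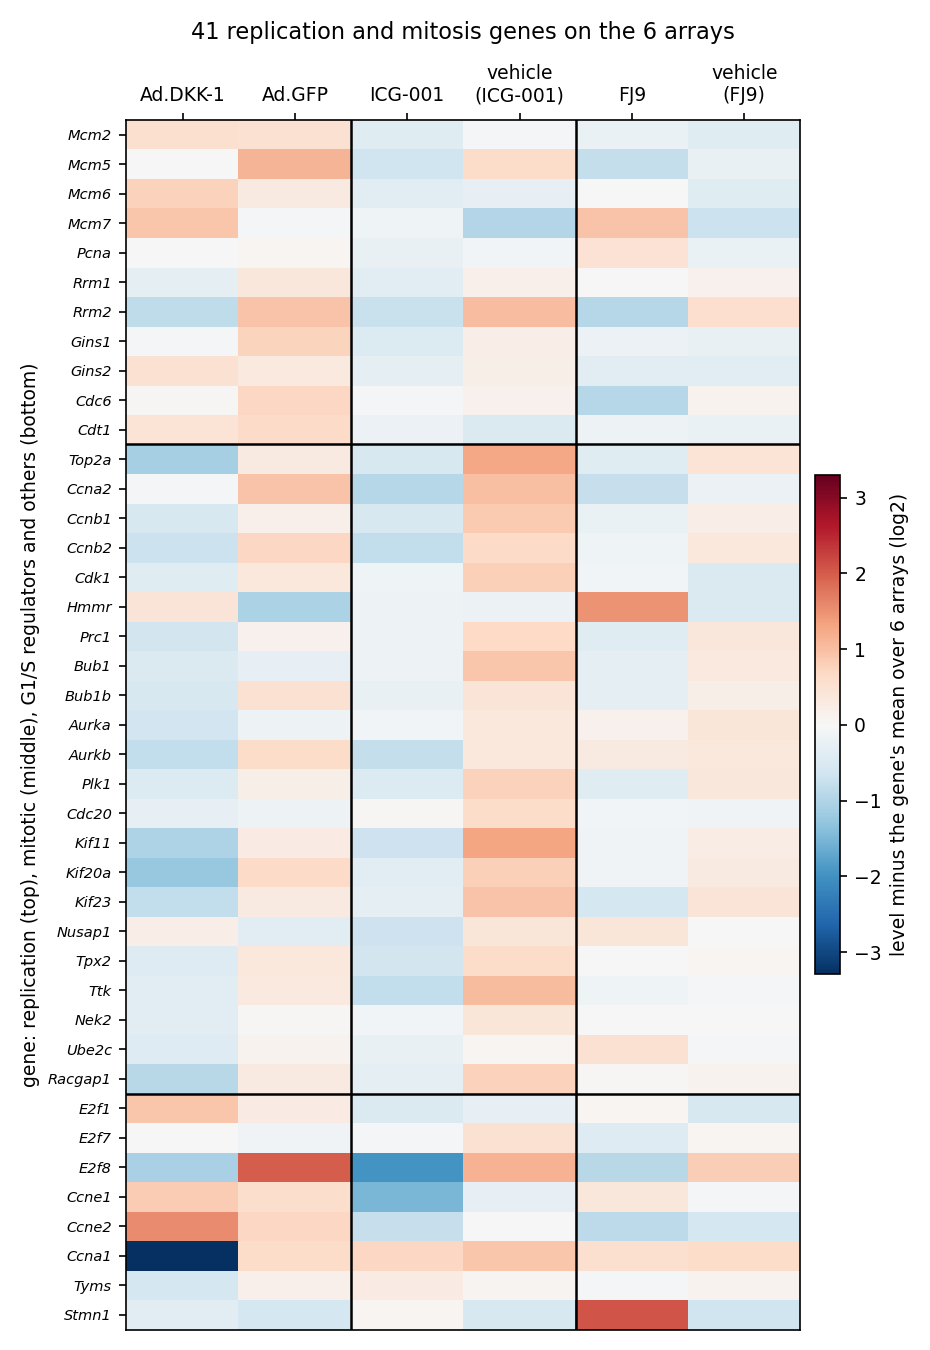
Level of each measured gene (rows, grouped as replication, mitotic and others) on the 6 arrays (columns, each treated array left of its control), drawn as the level minus the gene's mean over the arrays, in log2. The vehicle of ICG-001 was the highest array for 15 of the 22 mitotic genes, against 20.8% of all named genes. Ad.DKK-1 was the lowest for 14 of them, against 32.7%. Ad.GFP was the highest for 5 of the 11 replication genes, against 15.1%.

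Dim genes take part in these counts unequally. Of the 24 members past the level filter, 12, 10 and 5 were at least 1.5-fold lower under Ad.DKK-1, ICG-001 and FJ9, and 4, 2 and 4 higher, against 14.5%, 12.6% and 11.6% higher of the genes past it. Among mitotic genes past the level filter, 6 of 9 were lower under Ad.DKK-1, 6 with ICG-001 and 2 with FJ9, against 20.8%, 13.1% and 14.8% of the 10025 genes past it, and the median was −0.77, −1.04 and −0.07. Among the 13 under the filter, 9, 11 and 3 were lower, against 26.9%, 23.8% and 6.52% of the 4297 genes under it, while 0 were higher in any treatment, against 14.6%, 4.98% and 8.28%, and the median was −0.71, −1.12 and −0.42. With FJ9, the median was thus further below 0 among the dim mitotic genes than among those past the filter.

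**Figure D2:**
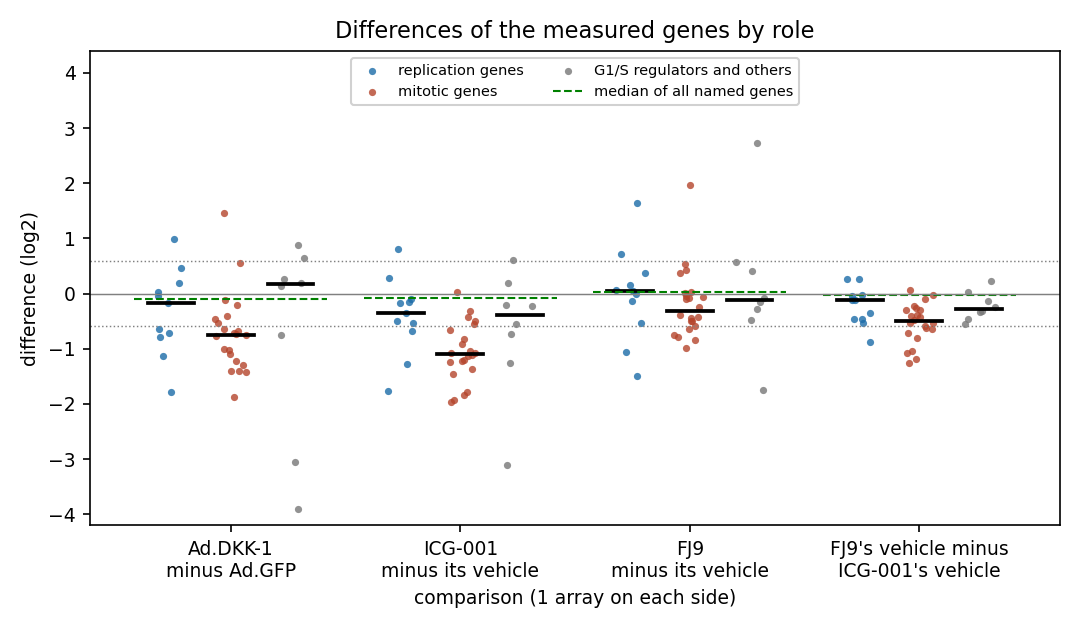
Difference in log2 for each measured gene (points) by role and comparison, with the median of each role (black bar), the median of all named genes (green dashes) and the 1.5-fold limits (dotted). The mitotic genes have medians of −0.75, −1.10 and −0.31 in the 3 treatments, and −0.51 between the vehicle arrays.

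The limma test over the 3 pairs asked which genes differed from control on average over the treatments, and says nothing of any treatment alone. With 2 residual degrees of freedom, the SE of a gene borrows from the spread of the other genes tested. A small SE therefore does not show that the 3 pairs agreed. On the 10025 filtered genes the test called 503 lower (5.02%) and 357 higher (3.56%). Of the 24 members among them, 4 were called lower (E2f8, Rrm2, Top2a and Ccnb2) and 2 higher (Mcm7 and Hmmr), with 13 of 24 at an unadjusted p under 0.05, against 25.0% of the genes tested. When all 14322 named genes were tested, limma called 3.89% lower and 2.55% higher, and of the 41 members 8 lower and 2 higher, with 23 at an unadjusted p under 0.05, against 20.6% of all named genes. The added members were Ccna2, Kif11, Kif20a and Kif23. All of these 10 but E2f8, Rrm2 and Mcm7 are mitotic genes. Over all 41 members, 17 had every treated array below every control array and 2 (Hmmr and Stmn1) had every treated array above, against 11.9% and 10.5% of all named genes.

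E2f8, a repressor of the E2F family that is itself made in S phase and shuts down E2F targets, was the member with the largest mean change. It read 5.87 on Ad.DKK-1, 4.99 on ICG-001 and 6.03 on FJ9, against 8.94 on Ad.GFP, 8.10 on the vehicle of ICG-001 and 7.77 on that of FJ9. The treated arrays lay below all controls, by 8.37, 8.65 and 3.34 times. Over the pairs E2f8 fell by 2.64 on the log2 scale (SE 0.312, limma adjusted p = 0.0002, lower in 3 of 3 pairs), and it kept an adjusted p of at most 0.0031 when any pair was left out. The related repressor E2f7 differed by 0.13, −0.56 and −0.48. E2f1, the activator of the family, read 7.43 on Ad.DKK-1 against 6.78 on Ad.GFP and 6.57 on FJ9 against 5.99 on its vehicle. With ICG-001 it differed by −0.21, a direction that flipped under repeated quantile normalization and loess correction.

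The E-type cyclins, which with Cdk2 drive entry into S phase, went opposite ways by treatment. Ccne1 read 5.90 on ICG-001 against 7.15 on its vehicle, a difference of −1.25, but 8.26 on Ad.DKK-1, 0.26 above Ad.GFP, and 7.79 on FJ9 against 7.37 on its vehicle. Ccne2 read 8.03 on Ad.DKK-1 against 7.15 on Ad.GFP, 5.71 on ICG-001 against 6.45 on its vehicle, and 5.60 on FJ9 against 5.88 on its vehicle. Both cyclins read higher on the 2 adenovirus arrays than on the 4 others, and their mean differences over the pairs were not called (limma adjusted p = 0.73 and 0.94).

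Among the replication genes, Rrm2, the cell cycle regulated subunit of ribonucleotide reductase, fell in the limma test and Mcm7 rose. Rrm2 read 7.00 on Ad.DKK-1, 7.10 on ICG-001 and 6.90 on FJ9, against 8.77 on Ad.GFP and 8.86 and 8.39 on the vehicles of ICG-001 and FJ9. The treated levels were close to each other and between 2.80 and 3.43 times below control, and over the pairs Rrm2 fell by 1.67 on the log2 scale (SE 0.241, limma adjusted p = 0.00071). A further Rrm2 probe set gave −1.68, −1.72 and −1.29. Rrm1, the large subunit that is present through most of the cycle, differed by −0.71, −0.54 and −0.13 and was not called (limma adjusted p = 0.28).

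Mcm7, one subunit of the helicase ring, read 10.10 on Ad.DKK-1, 9.03 on ICG-001 and 10.12 on FJ9, against 9.12 on Ad.GFP and 8.22 and 8.48 on the vehicles of ICG-001 and FJ9. It was higher in every pair, by 1.98, 1.75 and 3.13 times, although the ICG-001 array lay below Ad.GFP. Over the pairs Mcm7 rose by 1.15 (SE 0.223, limma adjusted p = 0.0058), a call that the fit without the pair as a block did not make (adjusted p = 0.059). The other helicase subunits did not share this pattern of differences. Mcm2 differed by 0.03, −0.35 and 0.16, and Mcm6 by 0.46, −0.10 and 0.38, where the ICG-001 value turned positive with median centring. Mcm5, under the level filter, read 5.96 on Ad.DKK-1 against 7.09 on Ad.GFP, 5.32 on ICG-001 against 6.59 on its vehicle and 5.18 on FJ9 against 5.72 on its vehicle.

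The licensing factor Cdc6 was lowest with FJ9, at 6.02 against 7.07 on its vehicle, and read 7.00 on Ad.DKK-1 against 7.63 on Ad.GFP. Cdt1, its partner in loading the helicase, differed by −0.18, 0.28 and 0.04. The GINS subunit Gins1, under the level filter, differed by −0.79, −0.67 and 0.06, and Gins2 by 0.20, −0.50 and 0.00. Pcna, the polymerase clamp, read 8.91 on FJ9 against 8.21 on its vehicle, and lay within 0.15 of control under the other treatments, where its direction changed with median centring. Tyms, which makes thymidylate, read 9.41 on Ad.DKK-1 against 10.15 on Ad.GFP and differed by 0.19 with ICG-001 and −0.16 with FJ9. None of these genes was called by limma in the fit that tested it, with or without the level filter.

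**Figure D3:**
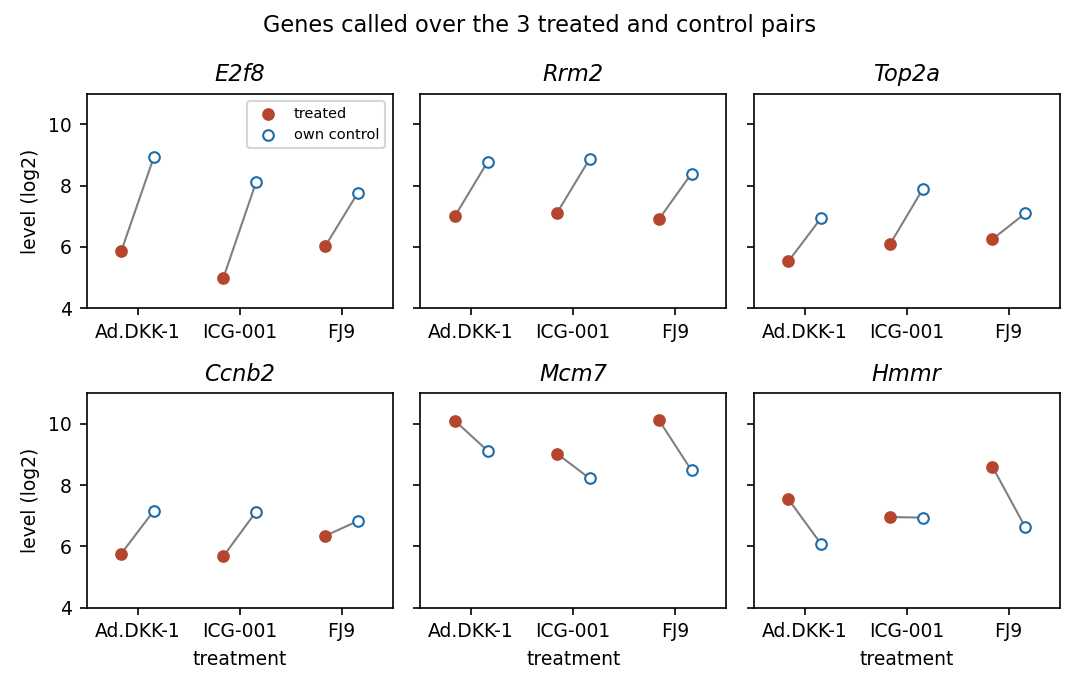
Log2 level of the 6 members called by limma in the filtered fit, with the treated array (filled) left of its own control (open) for each treatment. E2f8, Rrm2, Top2a and Ccnb2 were lower in all 3 pairs and Mcm7 higher in all 3, while Hmmr with ICG-001 read 6.96 against 6.94.

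The cyclins and kinase that trigger mitosis read lower under Ad.DKK-1 and with ICG-001. Ccnb2, a cyclin B, read 5.77 on Ad.DKK-1, 5.68 on ICG-001 and 6.35 on FJ9, against 7.17 on Ad.GFP and 7.13 and 6.83 on the vehicles. All treated arrays lay below all controls, and Ccnb2 fell by 1.11 over the pairs (SE 0.3, limma adjusted p = 0.034), a call that ended without either the Ad.DKK-1 pair (adjusted p = 0.098) or the ICG-001 pair (0.19), without the block (0.069) and with median centring (0.055) or loess correction (0.051). Ccnb1, the main mitotic cyclin, differed by −0.71, −1.37 and −0.44 and was not called without the filter (limma adjusted p = 0.11). Ccna2, the cyclin A of somatic cells, read 6.08 on Ad.DKK-1, 5.22 on ICG-001 and 5.38 on FJ9, against 7.10 on Ad.GFP, 7.15 on the vehicle of ICG-001 and 5.96 on that of FJ9. The FJ9 vehicle lay below the Ad.DKK-1 array, so its groups overlap, and limma without the filter gave a fall of 1.18 (SE 0.314, adjusted p = 0.028). Cdk1, the kinase these cyclins activate, differed by −0.75, −0.92 and 0.37.

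Ccna1, the cyclin A best known from male germ cells, stood apart from all other members. It read 4.03 on Ad.DKK-1, next to the lowest value in the deposited table, and between 7.84 and 8.23 on the 5 other arrays. Its difference of −3.90 under Ad.DKK-1 was the largest of any member in the 3 treatments, while it differed by −0.23 with ICG-001 and by −0.08 with FJ9. The mean over the pairs was not called (limma adjusted p = 0.12) and was −0.16 without the Ad.DKK-1 pair. Without the FJ9 pair the mean was −2.07 and Ccna1 was called (limma adjusted p = 7.5e-07). The pairs left in that fit disagreed (−3.90 and −0.23), so the call rests on the Ad.DKK-1 array and not on agreement between pairs.

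Top2a, the topoisomerase that untangles chromosomes before they separate, read 5.53 on Ad.DKK-1, 6.11 on ICG-001 and 6.25 on FJ9, against 6.94 on Ad.GFP and 7.90 and 7.09 on the vehicles of ICG-001 and FJ9. The groups did not overlap, and Top2a fell by 1.34 (SE 0.29, limma adjusted p = 0.011), a call lost without the ICG-001 pair (adjusted p = 0.11). Among the mitotic kinases, Aurkb of the chromosomal passenger complex differed by −1.42, −1.14 and −0.04, and Plk1, which acts from mitotic entry to cytokinesis, by −0.64, −1.23 and −0.75. Aurkb was not called over the 3 pairs (limma adjusted p = 0.10) and was called without the FJ9 pair (0.01). Aurka, which builds spindle poles, differed by −0.47, −0.43 and −0.25, and Nek2, a centrosome kinase, by −0.40, −0.50 and 0.01. Tpx2, the activator of Aurora A on the spindle, differed by −0.77, −1.21 and −0.07.

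Genes of the spindle checkpoint and of the anaphase-promoting complex gave less even values. The checkpoint kinase Ttk read 4.80 on ICG-001 against 6.64 on its vehicle, 5.26 on Ad.DKK-1 against 5.93 on Ad.GFP and 5.46 on FJ9 against 5.56 on its vehicle. Bub1 differed by −0.21, −1.08 and −0.64 and Bub1b by −1.01, −0.66 and −0.50. Cdc20, the activator of the anaphase-promoting complex, and Ube2c, its ubiquitin-conjugating enzyme, stayed within 1.5-fold of control in all 3 treatments. None of these genes was called in the fits over the pairs, where Bub1b had the lowest limma adjusted p after Ttk (0.14 and 0.13, without the level filter).

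Motors and bundlers of the spindle and the cytokinetic midzone mostly read lower. Kif11, the motor that pushes spindle poles apart, read 5.02 on Ad.DKK-1, 5.36 on ICG-001 and 5.91 on FJ9, against 6.31 on Ad.GFP, 7.33 on the vehicle of ICG-001 and 6.29 on that of FJ9. Kif20a, a motor of cytokinesis, read 4.78, 5.68 and 5.89 on Ad.DKK-1, ICG-001 and FJ9, against 6.65 on Ad.GFP and 6.80 and 6.31 on the vehicles. Kif23, a midzone motor, read 5.17, 5.69 and 5.41 on the treated arrays in that order, against 6.27 on Ad.GFP and 6.93 and 6.40 on the vehicles. For these 3 motors every treated array lay below every control, and limma without the level filter gave falls of 1.21 (Kif11, SE 0.322, adjusted p = 0.027), 1.14 (Kif20a, SE 0.317, adjusted p = 0.036) and 1.11 (Kif23, SE 0.287, adjusted p = 0.024). All 3 are under the filter, where readings are dimmest. Prc1, which crosslinks midzone microtubules, differed by −0.74, −0.83 and −0.79 (limma adjusted p = 0.09), and Racgap1, the partner of Kif23 in the centralspindlin complex, by −1.22, −1.04 and −0.08 (0.13).

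Some spindle genes read higher. Hmmr, a hyaluronan receptor that also binds spindle microtubules, read 7.54 on Ad.DKK-1, 6.96 on ICG-001 and 8.60 on FJ9, against 6.08 on Ad.GFP and 6.94 and 6.64 on the vehicles of ICG-001 and FJ9. It rose by 1.15 over the pairs (SE 0.336, limma adjusted p = 0.049), carried by Ad.DKK-1 and FJ9, and the call ended without either of these pairs (adjusted p = 0.11 and 0.21), without the block (0.12), without the trend (0.067) and with median centring (0.061) or loess correction (0.051). Stmn1, which destabilises microtubules, read 9.26 on FJ9 against 6.54 on its vehicle, 6.60 times higher, and 7.27 on ICG-001 against 6.67 and 6.81 on Ad.DKK-1 against 6.61. Stmn1 was not called over the 3 pairs (limma adjusted p = 0.078) and was called without the Ad.DKK-1 pair (0.0056). The pairs left in that fit were unequal, at 0.60 with ICG-001 and 2.72 with FJ9. Nusap1, a spindle-associated protein, differed by 0.55 under Ad.DKK-1 and 0.42 with FJ9 but by −1.08 with ICG-001.

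Of the 41 members, 6 were at least 1.5-fold lower in all 3 treatments, namely Top2a, Rrm2, E2f8, Prc1, Plk1 and Kif23, and only Mcm7 was at least 1.5-fold higher in all 3. Of all named genes, 2.62% and 1.79% met these conditions. A further 9 of the 41 stayed within 1.5-fold of control in every treatment, against 39.5% of all named genes (Mcm2, Mcm6, Cdt1, Gins2, E2f7, Aurka, Cdc20, Nek2 and Ube2c).

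The size of the ICG-001 and FJ9 differences depended on the vehicle array. For the mitotic genes the vehicle of FJ9 read below the vehicle of ICG-001, with a median difference of −0.51, 9 of 22 genes at least 1.5-fold lower and 0 higher, against 7.84% lower and 2.86% higher of all named genes. Past the level filter, 3 of 24 members were lower between these vehicles and 0 higher, against 5.2% and 2.44%. Set against the vehicle of FJ9, the ICG-001 array had a mitotic median of −0.65, with 12 of 22 genes at least 1.5-fold lower and 0 higher, against 12.9% and 11.3% of all named genes. Set against the vehicle of ICG-001, the FJ9 array had a mitotic median of −0.83, with 16 of 22 lower and 1 higher, against 16.6% and 12.8%. Against the vehicle of ICG-001 the medians were thus −1.10 for ICG-001 and −0.83 for FJ9. Against the vehicle of FJ9 they were −0.65 and −0.31. The ICG-001 median was the lower one with either vehicle, and the gap was narrower than the −1.10 and −0.31 against own vehicles. A shared vehicle cancels from each gene's difference between the ICG-001 and FJ9 arrays, so the vehicles are not separate checks of that order. All 4 medians were below 0. Cdk1 on the ICG-001 array differed by −0.92 from its own vehicle and by 0.33 from the other. E2f8 stayed low with either vehicle, at −2.78 for ICG-001 and −2.07 for FJ9 with the vehicles exchanged, and so was Rrm2 at −1.29 and −1.95.

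**Figure D4:**
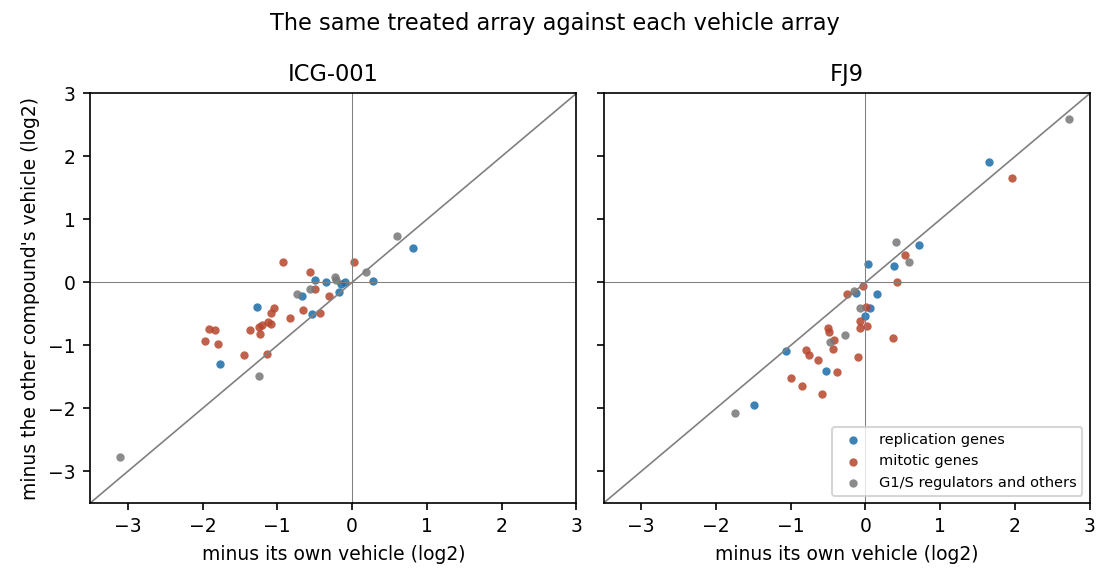
Difference in log2 of each measured gene on the ICG-001 array (left) and the FJ9 array (right), minus its own vehicle (horizontal axis) and minus the vehicle of the other compound (vertical axis), with the line of equality. Most mitotic genes lie above the line for ICG-001 and below it for FJ9, while E2f8 reads −3.11 and −2.78 for ICG-001. The distance from the line is the same vehicle difference in both panels, with opposite sign.

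The control arrays themselves differed in the replication genes. Ad.GFP, infected and exposed to 5% serum until the last 24 h, read above the mean of the vehicle arrays for all 11 measured replication genes, with a median of 0.64 and 6 at least 1.5-fold higher, against 5.91% of all named genes. Cdt1 (0.96), Mcm5 (0.94), Mcm7 (0.77), Gins1 (0.74), Mcm2 (0.71) and Mcm6 (0.64) were the 6. Against each vehicle separately, 10 of the 11 were higher than on the vehicle of ICG-001 and 11 than on that of FJ9, with 2 and 7 at least 1.5-fold higher, against 6.07% and 7.79% of all named genes. Of the mitotic genes, 9 were at least 1.5-fold lower than on the vehicle of ICG-001 and 1 than on that of FJ9, against 16.1% and 10.7%. E2f8 (1.00), Ccne2 (0.99), Ccne1 (0.74) and E2f1 (0.66) were higher too. The mitotic genes did not share this: their median was −0.27, with 0 of 22 at least 1.5-fold higher and 2 lower, against 11.6% lower of all named genes. Virus, medium and pool differ together between these arrays and cannot be told apart.

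**Figure D5:**
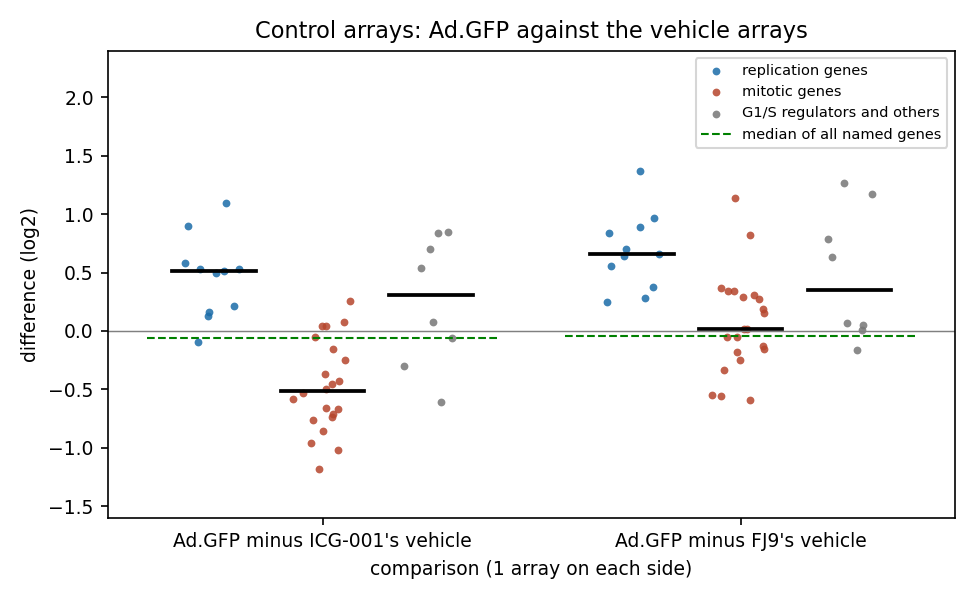
Difference in log2 between the Ad.GFP array and each vehicle array for each measured gene (points), with the median of each role (black bar) and of all named genes (green dashes). The replication genes have medians of 0.51 and 0.66 and the mitotic genes of −0.51 and 0.02 against the vehicles of ICG-001 and FJ9.

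Further genes of both processes were listed by role, with earlier results of these data known. Of 55 other replication genes listed, 49 were measured. Their median was 0.15 under Ad.DKK-1, 0.05 with ICG-001 and 0.18 with FJ9, with 7, 9 and 3 of 49 at least 1.5-fold lower and 7, 5 and 11 higher, against 22.6%, 16.3% and 12.3% lower and 14.5%, 10.3% and 10.6% higher of all named genes. The counts under Ad.DKK-1 are thus below the share of all named genes for lower and near it for higher. limma on the filtered genes called 1 of 42 lower and 2 higher, against 5.02% lower and 3.56% higher of all genes tested. Dut was lower (−0.87, limma adjusted p = 0.016), and Orc2 (1.09, adjusted p = 0.0085) and Pold2 (0.81, adjusted p = 0.046) were higher. Dut keeps uracil out of DNA, Orc2 belongs to the origin recognition complex and Pold2 is a subunit of polymerase delta. The largest single differences were those of the histone chaperone Asf1b (−1.78) and Orc2 (1.72) under Ad.DKK-1, of the single-strand binding subunit Rpa3 (−1.19) and Uhrf1 (−1.11) with ICG-001, and of Pold2 (1.09) and Mcm8 (1.07) with FJ9.

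Of 76 other mitotic genes listed, 55 were measured. Their median was −0.27 under Ad.DKK-1, −0.66 with ICG-001 and −0.06 with FJ9, with 19, 30 and 4 of 55 at least 1.5-fold lower and 10, 0 and 2 higher, against 22.6%, 16.3% and 12.3% lower and 14.5%, 10.3% and 10.6% higher of all named genes. The 4 of 55 with FJ9 are a smaller share than that of all named genes. limma on the filtered genes called 2 of 34 lower and 0 higher, against 5.02% lower and 3.56% higher of all genes tested. The 2 of 34 are near that share. They were Pttg1, which encodes securin (−1.02, limma adjusted p = 0.048), and Tacc3, a spindle protein (−0.84, adjusted p = 0.041). The largest differences were those of Pkmyt1, the inhibitory kinase of Cdk1 (2.42), and Ube2t (−1.65) under Ad.DKK-1, of the chromokinesin Kif4a (−1.67) and Pttg1 (−1.50) with ICG-001, and of Trip13 (0.90) and Fam83d (−0.86) with FJ9. Pkmyt1 read 9.03 on Ad.DKK-1 and between 6.53 and 7.04 on the 5 other arrays. Past the level filter the median of these genes under Ad.DKK-1 was 0.04, and under the filter −0.71.

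Regulators of these genes gave mixed results. Of 18 listed E2F, DREAM and MuvB genes, 11 were measured, all past the level filter. limma called 0 of them, against 5.02% lower and 3.56% higher of the filtered genes. At an unadjusted limma p under 0.05 were 3 of 11, against 25.0% of the filtered genes. Foxm1, the activator of mitotic genes, read 7.80 on ICG-001 against 8.81 on its vehicle, and lay within 0.12 of control under Ad.DKK-1 and FJ9. The pocket protein Rbl2, a part of DREAM, differed by −0.94, −0.24 and −0.54, the E2F partner Tfdp2 by −1.21, −0.30 and −0.15, and Lin54, the DNA-binding MuvB subunit, by 0.52, 0.19 and 0.89. Ccnd1, the cyclin upstream of the retinoblastoma proteins, read 11.11 on Ad.DKK-1 against 12.09 on Ad.GFP, 11.94 on ICG-001 against 12.12 on its vehicle, and 9.18 on FJ9 against 12.13 on its vehicle. It fell by 1.37 over the pairs (SE 0.353, limma adjusted p = 0.028), with unequal differences of −0.98, −0.18 and −2.94. Of 4 further inputs to the cell cycle that were looked at, limma called the growth-promoting factor Myc (0.86, adjusted p = 0.012) and the stress-induced Gadd45a (1.60, adjusted p = 0.001) higher and Cdkn2a, which encodes a kinase inhibitor (−1.10, adjusted p = 0.029), lower, and did not call the kinase inhibitor Cdkn1a (−0.01, adjusted p = 0.99). A link between these inputs and the differences of the mitotic genes was not tested.

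The lists of stellate cell, macrophage and endothelial markers also had medians or means below control, but not every marker read lower. Des and Vim read higher under Ad.DKK-1 and with ICG-001, as did Cdh5 under Ad.DKK-1 and Tek with ICG-001. The 11 stellate cell markers had median differences of −0.98, −0.18 and −0.59 under Ad.DKK-1, ICG-001 and FJ9, and the 4 measured endothelial markers −0.42, −0.52 and −0.42. All 10 listed macrophage markers were measured. Their mean level was 6.10 on Ad.DKK-1 against 7.06 on Ad.GFP, 6.16 on ICG-001 against 6.81 on its vehicle and 6.27 on FJ9 against 6.92 on its vehicle. Over all named genes it was 7.66 against 7.76, 7.78 against 7.86 and 7.78 against 7.80. Of the macrophage markers Clec4f, Cd163, Adgre1, Ptprc, Marco, C1qa and C1qb were under the level filter, as were the endothelial Cdh5 and Lyve1. Genes under the filter in general also read lower under Ad.DKK-1 and with ICG-001. Clec4f, which marks Kupffer cells, read between 4.99 and 6.17 and Adgre1 between 4.11 and 7.03. Between the vehicle arrays, with 1 array on each side, the macrophage markers had a median difference of 0.12. The part of these cell types in the differences of the mitotic genes was not tested. Hepatocyte and lymphocyte markers had medians of 0.07 and 0.08 under Ad.DKK-1, −0.20 and −0.35 with ICG-001, and 0.06 and 0.04 with FJ9.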

How the data were processed

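Per the submitters' processing notes, the deposited log2 expression values were made with RMA in Affymetrix Expression Console, which corrects background, normalizes the arrays together and summarises each probe set. Those notes give no software version used here. These values, which run from 4.00 to 13.8, entered every step without a further transformation. The platform annotation gave 1 gene symbol to 15092 of 26988 probe sets and several to 323, and left 11573 without a name here. RefSeq GRCr8 was used for names only; it matched 15062 probe sets by Entrez identifier and changed 0 symbols.

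For each of 14322 genes the probe set with the highest mean level was used. A level filter left out the lowest 30% of genes (mean up to 6.39), which kept 10025. Differences are treated minus own control. Genes at least 1.5-fold apart were counted, with no test, as each group is 1 array. limma 3.58.1 in R 4.3.3 tested the mean treated minus control difference over the 3 pairs on the filtered genes. It used lmFit and eBayes with trend, two-sided, pair as a block, Benjamini-Hochberg, adjusted p under 0.05. The fit was also run on simulated data, where a changed gene had the same change in all 3 pairs. That run does not cover treatments whose differences disagree. The pairing comes from the labels, which name each control by its treatment. Named genes are all members and, from each other list, up to 4 with the largest difference in a comparison. Members and lists were chosen with earlier results of these data known. Alternatives were other scalings, filters, vehicles, thresholds and probe set choices. No genome or sequence table was used here, so no sequence is shown and a planned search of promoters was not made.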

Additional observations from a re-analysis of the deposited data

How the results depend on the processing

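All counts and medians here start from the 24 members past the level filter, in the order Ad.DKK-1, ICG-001, FJ9 and the vehicle of FJ9 minus that of ICG-001. The main counts lower were 12, 10, 5 and 3 of 24, against 20.8%, 13.1%, 14.8% and 5.2% of the genes past the filter. Without the filter they were 23, 23, 8 and 10 of 41 members, against 22.6%, 16.3%, 12.3% and 7.84% of all named genes. With the lowest 50% left out, which leaves fewer members than 24, they were 2, 1, 1 and 0. At 2-fold they were 7 for Ad.DKK-1, 3 for FJ9 and 0 between vehicles. The share of all genes was not computed for either of these settings. Between vehicles, median centring and loess correction each left 1. The main counts higher in the treatments were 4, 2 and 4, which became 1, 1 and 2 with the lowest 50% left out, and 1 for Ad.DKK-1 and 0 for ICG-001 at 2-fold. With the other compound's vehicle, ICG-001 had 1 higher, with or without the filter. FJ9 had 10 of 24 lower, or 22 of 41 without the filter, against 16.6% of all named genes. The combination of the other vehicle and no filter was chosen after seeing the data. The cause of these changes was not tested, beyond the fewer or more genes that a filter leaves.

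Medians of all members were −0.52, −0.52 and −0.05 in the treatments. They were 0.00 for Ad.DKK-1 with the lowest 50% left out, −0.13 for ICG-001 and −0.39 for FJ9 with the other vehicle, and −0.69 for FJ9 with the filter off as well. Replication medians were 0.00, −0.27, 0.08 and −0.12. For Ad.DKK-1 they were −0.18 without the filter, 0.12 with the lowest 50% left out and −0.19 as a mean. For ICG-001 they were −0.10 with median centring and −0.02 with the other vehicle, or −0.03 with the filter off as well. For FJ9 they were 0.27 with the lowest 50% left out, −0.08 against the mean of both vehicles and −0.18 with the other vehicle, or −0.19 with the filter off. Between vehicles they were 0.02 with median centring and −0.24 with the lowest 50% left out. Mitotic medians were −1.04 for ICG-001 and −0.07 for FJ9. With the lowest 50% left out, the ICG-001 value was −0.50, which is that of Nek2 alone, the mitotic gene with the highest mean level. For ICG-001 the mitotic medians were −0.56 with the other vehicle, or −0.65 with the filter off. For FJ9 they were −0.69 with the other vehicle, or −0.83 with the filter off.

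limma called 4 members lower and 2 higher with the pair as a block. Without the block it called 3 lower and 0 higher, without the trend 1 higher, with median centring 1 higher and with loess correction 1 higher, and without the filter 8 lower. Leaving out 1 pair at a time gave 2 to 7 lower and 1 to 2 higher. The share of all genes called was computed for the main fit (5.02% lower and 3.56% higher). It was also computed without the filter (3.89% and 2.55%), and for none of the other fits. Whether the other counts follow the number of genes called in all was not tested. Racgap1 was called without the FJ9 pair (adjusted p = 0.03). With 1 array per group, precision is limited by the number of arrays.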
